A study of Mus musculus with 10 samples.

Results

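Tubulins are the building blocks of microtubules, and 9 of their genes were followed here in mouse hepatocytes across 4 times of day and along the liver lobule. They were taken by name from the 14812 gene entries of the deposited tables: the β-tubulin genes Tubb2a, Tubb2b, Tubb4b and Tubb5 and the α-tubulin genes Tuba1a, Tuba1b, Tuba1c, Tuba4a and Tuba8, which the tables list in lower case (tubb2a, tubb2b, tubb4b, tubb5, tuba1a, tuba1b, tuba1c, tuba4a and tuba8). The family was chosen on measured values, since Tubb2a had been seen among the genes that differ most between ZT12 and ZT0 in these libraries, so levels over time are given as a description. Counts of members past a threshold over time stand beside the share of all genes, and nothing is read from them. Levels along the lobule were not used in that choice and were tested. All 9 genes had an entry in the tables, and 6 of them had a mean level of at least 3 CPM, that is, UMIs per 1000000 UMIs of the library, and entered the fits across genes. Tubb2b, Tuba1a and Tuba8 were below that level and are given as raw counts. For Tuba8, a zone difference from an alternative fit with no filter on low counts is given as well.

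The series holds single-cell RNA libraries of hepatocytes from male C57BL/6 mice aged 3 months. All mice ate regular chow whenever they chose and were anaesthetised with ketamine and xylazine, and their hepatocytes were freed by perfusing the liver with collagenase and cleaned on a Percoll gradient. The groups are named by zeitgeber time (ZT), which counts hours in the light-dark cycle with lights on at ZT0 by convention. There are 3 libraries at ZT0 (A, B and C), 2 at ZT6 (A and B), 3 at ZT12 (A, B and C) and 2 at ZT18 (A and B). The groups also differ in the number of the libraries' sample index. ZT6 has only number 7 and ZT18 only number 4, while ZT0 and ZT12 each have numbers 3, 7 and 5. Whether a library came from 1 mouse or several is not in the labels, so spreads and p-values measure only how these libraries differ, which may be technical.

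An α-tubulin and a β-tubulin fold with the help of the chaperonin and of dedicated cofactors, pair into a dimer, and add to the ends of microtubules. In hepatocytes, microtubules carry secretory vesicles, lipoproteins and membrane proteins to the sinusoidal and bile canalicular surfaces. Cells adjust tubulin messenger RNA to the pool of free dimers: when soluble tubulin is plentiful, a factor that recognises the first residues of the new chain on the ribosome triggers decay of its messenger.

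The libraries held 710 to 2860 cells and 1454623 to 7144803 UMIs, 18378 cells in all, with 1588 to 2662 UMIs in the median cell. A UMI marks 1 captured molecule at its 3′ end, so levels of different genes were compared without a length correction. Hepatocyte markers summed to 47687 to 90435 CPM. Markers of endothelial cells, macrophages, lymphocytes, neutrophils and stellate cells summed to at most 17.4, 11.5, 0.609, 7.84 and 16.9 CPM, and 2 endothelial, 3 macrophage and 6 lymphocyte markers had no UMI in any cell. Cholangiocyte markers summed to 5.79 to 118 CPM, highest in ZT0A, and erythroid markers to 99.3 to 272 CPM at ZT18 against 73.6 to 110 CPM at the other times. Markers of cycling cells summed to 15.9 to 31.4 CPM at ZT0, 16.2 to 19.3 at ZT6, 29.6 to 42.5 at ZT12 and 17.2 to 27.7 at ZT18, and their part in the tubulin levels was not tested. Cells carry running names and no barcodes in these tables, so barcodes shared between libraries were not counted.

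The 9 genes have similar coding sequences, and the start of the coding sequence is shown because it encodes the residues that the decay pathway reads. Below are the first 30 coding bases, 5′ to 3′, from GENCODE M21 on GRCm38, with the first 4 codons in capitals.
Tubb2a: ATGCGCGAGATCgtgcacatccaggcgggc
Tubb4b: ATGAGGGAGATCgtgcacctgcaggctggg
Tubb5: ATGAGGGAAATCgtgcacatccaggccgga
Tuba1b: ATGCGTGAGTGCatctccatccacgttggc
Tuba4a: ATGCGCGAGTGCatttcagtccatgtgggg
Tuba8: ATGAGGGAATGCatatcggtccatgtgggt
The 4 β-tubulin genes had 4 different spellings of these codons and the 5 α-tubulin genes had 3. Over the whole coding sequence Tubb2a was 96.5% identical to Tubb2b, 83.7% to Tubb4b and 84.6% to Tubb5, and Tuba1b was 98.3% identical to Tuba1a, 97.9% to Tuba1c, 85.1% to Tuba4a and 79.2% to Tuba8.

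Such likeness matters for counting. In the last 400 bases of the transcript, the stretch a 3′ library reads, 53.3% of the 50-base words of Tuba1b and 59.3% of those of Tuba1c also occurred in another gene, chiefly other Tuba1 genes and pseudogenes. The share was 43.9% for Tuba1a, 31.9% for Tubb2a (shared with Tubb2b and a pseudogene) and 29.3% for Tubb4b (pseudogenes). For Tubb2b, Tubb5, Tuba4a and Tuba8 it was 0. How reads that match several genes were counted is not given in the sources used here, so levels of the first 5 of these genes are uncertain by what such reads add or lose.

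The sequence just before the start of transcription is shown for the 3 β-tubulin genes expressed in these cells, since their shares of the β-tubulin pool differed between times of day. Each line gives the 250 bases upstream of the RefSeq start on GRCm38.p6, 5′ to 3′ on the gene's strand. Capitals mark the cAMP response element TGACGTCA, the TATA box TATAAA, the CCAAT box and the E-box CACGTG.
Tubb2a, chr13:34078009-34078258, minus strand: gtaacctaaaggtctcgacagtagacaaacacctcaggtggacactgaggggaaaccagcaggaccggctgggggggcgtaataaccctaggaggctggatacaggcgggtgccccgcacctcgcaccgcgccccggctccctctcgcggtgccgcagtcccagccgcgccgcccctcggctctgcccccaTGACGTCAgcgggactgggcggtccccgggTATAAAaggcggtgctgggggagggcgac
Tubb4b, chr2:25224703-25224952, minus strand: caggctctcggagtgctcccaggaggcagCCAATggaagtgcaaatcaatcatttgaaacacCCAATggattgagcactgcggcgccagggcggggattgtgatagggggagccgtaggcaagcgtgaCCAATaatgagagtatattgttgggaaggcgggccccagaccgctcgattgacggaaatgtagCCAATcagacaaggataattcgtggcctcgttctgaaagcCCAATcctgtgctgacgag
Tubb5, chr17:35838302-35838551, minus strand: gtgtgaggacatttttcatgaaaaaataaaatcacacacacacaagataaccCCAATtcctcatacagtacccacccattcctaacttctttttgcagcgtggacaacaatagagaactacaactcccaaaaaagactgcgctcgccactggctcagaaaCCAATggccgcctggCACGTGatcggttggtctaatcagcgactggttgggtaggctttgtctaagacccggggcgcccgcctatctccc
The Tubb2a window held TGACGTCA at -59 to -52 and TATAAA at -29 to -24. Of 32851 windows of this length, 1.55% held TGACGTCA and 12.4% held TATAAA, on either strand, and none of the other 7 tubulin windows found held either. CCAAT stood 5 times in the Tubb4b window and 2 times in that of Tubb5, and was also in the windows of Tuba1a and Tuba1c (33.8% of all windows). CACGTG, to which clock factors can bind, was in the windows of Tubb5 and Tuba8 (6.02% of all).

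The other motifs searched on both strands were GGGCGG (5 of the 8 windows, 32.7% of all), AGGTCA, the half-site of several nuclear receptors (Tuba8, 14.02% of all), TGACG, which lies within the cAMP response element (Tubb2a, Tubb4b, Tuba1c and Tuba4a, 17.8% of all), and TTATGNAA (3.07% of all), GAANNTTC (6.69% of all), a heat shock element of 3 repeats (0.466% of all) and the CArG box (1.47% of all), which were in none of the 8 tubulin windows. A match is a run of letters and not a measured binding site.

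Tubb2a had the largest difference of the fitted members between any 2 times of day, that of ZT12 and ZT0. In pairs of times without ZT12, Tuba1c or Tubb4b differed by more. It lies on chromosome 13 (34074274 to 34078007, minus strand, GRCm38) with 4 exons, and encodes a β-tubulin best known from neurons. Its level was 122, 131 and 159 CPM in the ZT0 libraries A, B and C, 44.1 and 37.1 CPM at ZT6, 13.1, 12.3 and 15.6 CPM at ZT12, and 79.2 and 91.6 CPM at ZT18. The order was ZT0, ZT18, ZT6, ZT12 from high to low, and no library of one time overlapped those of another. Means were 137 ± 19.6 (SD, n = 3), 85.4 ± 8.77 (n = 2), 40.6 ± 4.95 (n = 2) and 13.6 ± 1.70 CPM (n = 3) in that order. ZT12 minus ZT0 was -3.48 ± 0.19 on the log2 scale (SE, edgeR), a fold of 11.1, and ZT18 minus ZT12 was 2.79 ± 0.20.

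The step from ZT0 to ZT6 was about as large as that from ZT6 to ZT12: ZT6 minus ZT0 was -1.84 ± 0.20 and ZT12 minus ZT6 was -1.64 ± 0.21. ZT18 stood between ZT6 and ZT0, with 1.15 ± 0.21 for ZT18 minus ZT6 and -0.69 ± 0.19 for ZT18 minus ZT0. Each library also has a 10x sample index with a number that ZT0 and ZT12 libraries of the same letter share, so the pairs could be read within a number: Tubb2a at ZT0 was 9.31 times its ZT12 level in the pair of number 3, 10.6 times in that of number 7 and 10.2 times in that of number 5. These ratios use CPM, whereas the fold of 11.1 also uses edgeR's scaling between libraries (TMM). Both ZT6 libraries carry number 7, and within it ZT6 minus ZT0B was -1.57 for ZT6A and -1.82 for ZT6B. Both ZT18 libraries carry number 4 and no other library does, so for ZT18 the number and the time cannot be told apart. Without the ZT18 libraries, a fit added after the data had been seen, the ZT12 minus ZT0 difference was -3.48 ± 0.21.

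**Figure D1:**
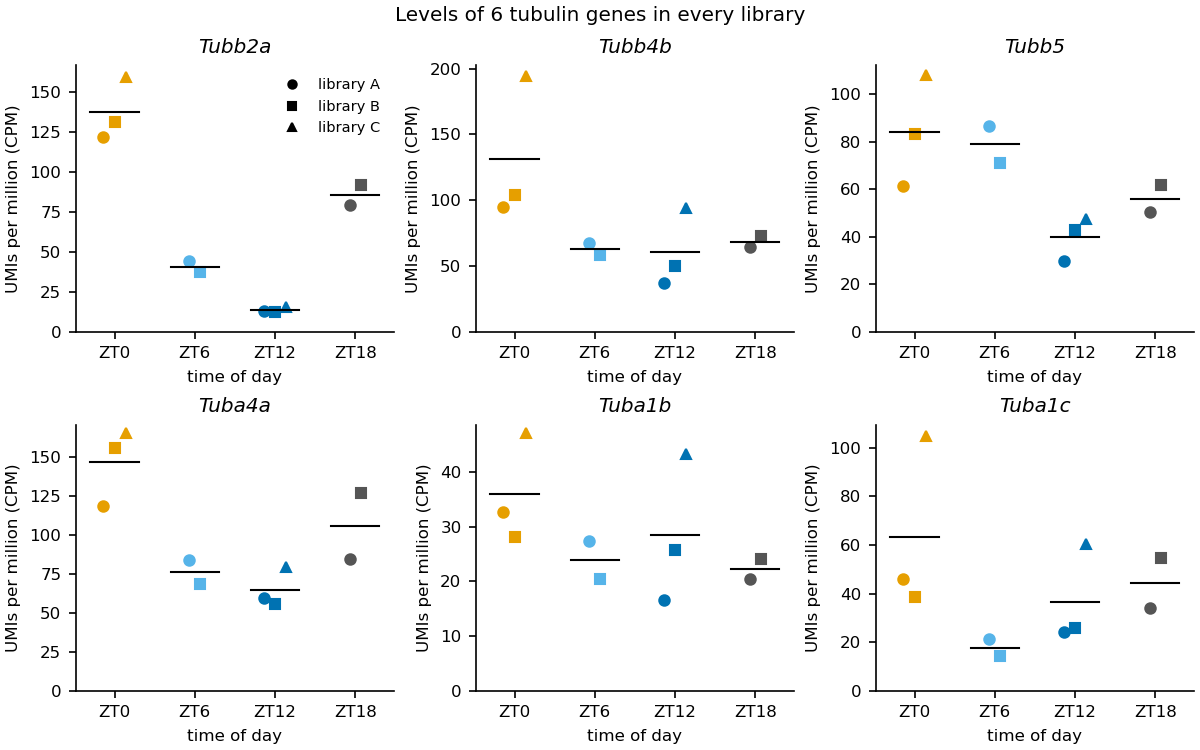
Level in CPM (vertical axis) of 6 tubulin genes at each time of day. Each point is 1 library, its shape gives the library's letter, and bars are means of 3 libraries (ZT0, ZT12) or 2 (ZT6, ZT18). Tubb2a runs from 12.3 to 15.6 CPM at ZT12 to 122 to 159 CPM at ZT0 with no overlap between times, while library C is highest at both ZT0 and ZT12 for Tubb4b, Tuba1b and Tuba1c.

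The difference was spread over many cells. After each cell had been thinned to 1000 UMIs, a Tubb2a UMI was found in 12.3% ± 1.94 of cells at ZT0 (SD, n = 3; 30.1% before thinning), 4.13% ± 0.531 at ZT6 (n = 2; 7.27%), 1.16% ± 0.285 at ZT12 (n = 3; 2.89%) and 7.89% ± 0.792 at ZT18 (n = 2; 15.2%). The order of times was that of the CPM values. No single cell gave over 6.45% of a library's Tubb2a UMIs, and no cell held more than 7. The cells were purified hepatocytes, with no other cell type in which to read the share that free RNA alone would give. In summed counts, fewer expressing cells and less RNA per cell cannot be told apart.

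As counted, Tuba4a was the most abundant α-tubulin, and it followed a profile like that of Tubb2a at a smaller size. The gene is on chromosome 1 (75214228 to 75219865, minus strand), and its product is the α-tubulin made without the final tyrosine. It measured 119, 156 and 165 CPM at ZT0, 83.9 and 68.8 CPM at ZT6, 59.8, 55.8 and 79.3 CPM at ZT12, and 84.6 and 127 CPM at ZT18. ZT0 did not overlap ZT12 or ZT6, whereas ZT18 overlapped ZT0 and the ranges of ZT6 and ZT12 overlapped each other. ZT12 minus ZT0 was -1.32 ± 0.21 and ZT18 minus ZT12 was 0.86 ± 0.23.

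Tubb4b and Tubb5 are widely expressed β-tubulins. Tubb4b (chromosome 2, 25222160 to 25224702, minus strand) measured 94.8, 104 and 195 CPM at ZT0, 67.2 and 58.3 CPM at ZT6, 37.1, 50.1 and 94.4 CPM at ZT12, and 64.1 and 72.5 CPM at ZT18. ZT0 stood above the other times, by a narrow margin over ZT12C, and the other times overlapped. ZT12 minus ZT0 was -1.26 ± 0.29. Within index numbers the ZT0 library was 2.55, 2.07 and 2.06 times the ZT12 library (numbers 3, 7 and 5).

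Tubb5 (chromosome 17, 35833921 to 35838306, minus strand) stayed high into the day. It measured 61.3, 83.2 and 108 CPM at ZT0, 86.7 and 71.1 CPM at ZT6, 29.6, 42.8 and 47.7 CPM at ZT12, and 50.3 and 61.7 CPM at ZT18. ZT6 lay within the range of ZT0, and ZT12 lay below all other times without overlap. ZT12 minus ZT0 was -1.19 ± 0.22 and ZT6 minus ZT0 was -0.17 ± 0.23. The 16 immediate-early genes checked as a sign of cell handling summed to 563 to 1141 CPM at ZT0, 1093 to 1178 at ZT6, 552 to 689 at ZT12 and 751 to 779 at ZT18. Their sum, like Tubb5, was higher in both ZT6 libraries than in any ZT12 library, and its part in the Tubb5 level was not tested.

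Tuba1b and Tuba1c, the common α-tubulins of many tissues, lie with Tuba1a on chromosome 15 (98931425 to 98934565, minus strand, and 99029891 to 99038110, plus strand). Tuba1b measured 32.6, 28.1 and 47.1 CPM at ZT0, 27.4 and 20.5 CPM at ZT6, 16.5, 25.8 and 43.2 CPM at ZT12, and 20.4 and 23.98 CPM at ZT18. Tuba1c measured 45.9, 38.8 and 105 CPM at ZT0, 21.3 and 14.3 CPM at ZT6, 24.1, 25.9 and 60.2 CPM at ZT12, and 34.3 and 54.7 CPM at ZT18. For both genes ZT0 and ZT12 overlapped. Library C, with index number 5, was the highest of its time at ZT0 and at ZT12 for these genes and for the other 4 fitted members.

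ZT12 minus ZT0 was -0.47 ± 0.27 for Tuba1b and -0.94 ± 0.37 for Tuba1c. Within index numbers the ZT0 library was 1.98, 1.09 and 1.09 times the ZT12 library for Tuba1b and 1.91, 1.498 and 1.74 times for Tuba1c (numbers 3, 7 and 5). Tuba1c was lowest at ZT6, where ZT6 minus ZT0 was -1.87 ± 0.44 and ZT18 minus ZT6 was 1.39 ± 0.47, both without overlap. Within number 7, which both ZT6 libraries carry, the difference from ZT0B was smaller, at -0.86 for ZT6A and -1.44 for ZT6B. For Tuba1b it was -0.03 and -0.46 there.

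The other members were near the floor of detection. Tubb2b had 3 UMIs in all, 1 each in ZT0A, ZT18A and ZT18B. Tuba1a had 22 UMIs, of which 9 were in ZT18B. Tuba8 had 40 UMIs, with 7, 3 and 12 in the ZT0 libraries, 4 and 5 at ZT6, 0, 2 and 6 at ZT12, and 0 and 1 at ZT18.

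As counts, 4 of the 6 fitted members were past the threshold (edgeR's quasi-likelihood test, Benjamini-Hochberg adjusted p under 0.05) between ZT12 and ZT0, all lower at ZT12, where 3.44% of 8908 genes were past it (1.70% lower). The libraries of these 4 genes did not overlap, which held for 18.1% of all genes. Tubb4b was not past the threshold with library size alone as the scaling (-1.11 ± 0.33) or in fits without ZT0C (-0.93 ± 0.27), ZT12A (-1.05), ZT12B (-1.17), ZT6A (-1.26) or ZT6B (-1.26). With the library's letter as a block Tuba1c was past it too (-0.91 ± 0.22), which made 5 of 6. That fit called 504 of 8908 genes, against 306 in the main fit. With the index number as a block Tuba1c was also past it (-0.89 ± 0.20), and 767 of 8908 genes were called.

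Tubb2a alone was past it for ZT6 against ZT0 (0.718% of all genes), ZT12 against ZT6 (0.595%) and ZT18 against ZT6 (3.79%), and Tubb2a and Tuba4a were for ZT18 against ZT12 (4.85%). For ZT18 against ZT6 that call of Tubb2a was lost without ZT6A, ZT6B or ZT18B, with differences of 1.23, 1.08 and 1.02, and among cells of at least 3000 UMIs (1.18), while with no filter on low counts Tuba1c was past it too (1.39). Libraries did not overlap for 5 of 6 members between ZT6 and ZT0 (32.8% of all genes) and for 4 of 6 between ZT18 and ZT6 (62.0%). A 24-h wave, fitted to the same libraries that gave the choice, was past the threshold for 3 of 6 (5.14% of all genes): Tubb2a with a fitted peak at ZT22.7 and a peak-to-trough fold of 12.02, Tuba4a at ZT22.5 with 2.70 and Tubb5 at ZT1.30 with 2.38. With samples 6 h apart, the shape of the profile between them is not seen.

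The make-up of the β-tubulin pool differed between the times of day. Tubb2a made up 43.8%, 41.1% and 34.4% of β-tubulin UMIs at ZT0, 22.3% in both ZT6 libraries, 16.4%, 11.7% and 9.87% at ZT12, and 40.8% and 40.5% at ZT18. The most abundant β-tubulin was Tubb2a at ZT18 and in 2 of the 3 ZT0 libraries, Tubb5 in both ZT6 libraries (43.8% and 42.7%) and Tubb4b in all ZT12 libraries (46.6%, 47.6% and 59.9%). ZT0C was the exception at its time, with Tubb4b at 42.1%. Among α-tubulin UMIs, Tuba4a led in every library, with 42.6% to 69.7%. Reads matching several genes make the counts of Tubb2a, Tubb4b, Tuba1a, Tuba1b and Tuba1c uncertain. These shares and the ratios of β- to α-tubulin UMIs below are uncertain with them. The part of such reads in the lead of Tuba4a, which shared no 3′ word with another gene, was not tested.

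All 9 genes together summed to 600 ± 161 CPM at ZT0 (SD, n = 3), 302 ± 41.6 at ZT6 (n = 2), 246 ± 86.6 at ZT12 (n = 3) and 384 ± 71.5 at ZT18 (n = 2). The UMIs of the 4 β-tubulins were 1.40, 1.42 and 1.45 times those of the α-tubulins at ZT0, 1.48 and 1.57 times at ZT6, 0.795, 0.975 and 0.846 times at ZT12, and 1.39 and 1.08 times at ZT18. This ratio holds Tubb2a, whose ZT12 level led to the choice of the family, and was formed after the single genes had been seen. Without Tubb2a it was 0.784, 0.838 and 0.948 at ZT0, 1.15 and 1.22 at ZT6, 0.664, 0.861 and 0.763 at ZT12, and 0.822 and 0.645 at ZT18. ZT12 then overlapped ZT0 and ZT18, and ZT6 alone was above 1. The other 8 genes together summed to 463 ± 141 CPM at ZT0 (SD, n = 3), 262 ± 36.6 at ZT6 (n = 2), 232 ± 85.0 at ZT12 (n = 3) and 299 ± 62.7 at ZT18 (n = 2).

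**Figure D2:**
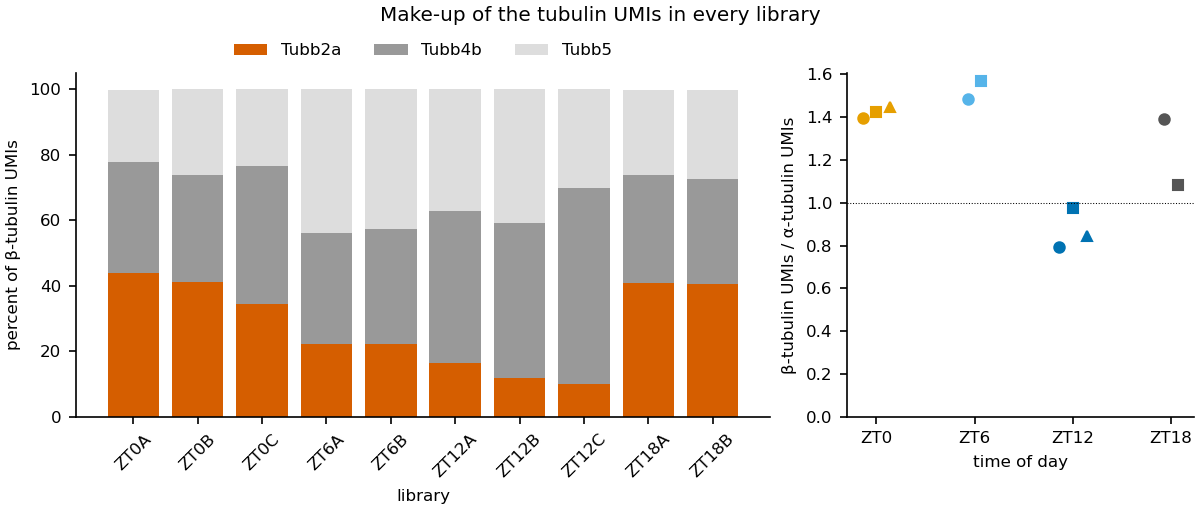
Left, percent of all β-tubulin UMIs (vertical axis) that came from Tubb2a, Tubb4b and Tubb5 in each of 10 libraries. Right, β-tubulin UMIs divided by α-tubulin UMIs in each library, with circles, squares and triangles for libraries A, B and C and a dotted line at 1. Tubb2a lies at 34.4% to 43.8% at ZT0 and at 9.87% to 16.4% at ZT12, and on the right, where the ratio includes Tubb2a, the 3 ZT12 libraries are the ones below 1.

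Over the 10 libraries, log2 levels of Tubb2a and Tuba4a had a Pearson correlation of 0.93, against 0.80 for Tubb2a and Tubb5, 0.76 for Tubb2a and Tubb4b, 0.53 with Tuba1c and 0.43 with Tuba1b. Tubb4b correlated at 0.88 with Tuba1b and 0.80 with Tuba1c. These are descriptions over libraries that share their time of day and, in part, their index number. Among 4340 genes of at least 20 CPM, those most like Tubb2a outside the family included Clpx (r = 0.98), a chaperone of the mitochondrial matrix, Cldn1 (0.97), a tight junction protein, Pnp (0.97), a purine nucleoside phosphorylase, St5 (0.96), Lamtor1 (0.94), which anchors a nutrient-sensing complex at the lysosome, Psen2 (0.94), a γ-secretase subunit, and Hacl1 (0.93), an enzyme of peroxisomal α-oxidation.

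Clpx averaged 216 ± 38.5 CPM at ZT0 (SD, n = 3) and 41.1 ± 9.14 at ZT12 (n = 3), and Cldn1 77.9 ± 4.84 and 13.96 ± 1.72 CPM. Lamtor1 averaged 78.1 ± 6.51 and 61.8 ± 3.33 CPM, a much smaller difference, since a correlation does not see the size of a change. The 4 genes most opposite to Tubb2a were Cpt1a (-0.98), the gate of fatty acid import into mitochondria, Tef (-0.96), a clock output factor, N4bp2l1 (-0.96) and Lpin1 (-0.96), a phosphatidate phosphatase. Cpt1a averaged 86.3 ± 10.3 CPM at ZT0 and 278 ± 30.7 CPM at ZT12.

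The genes that fold and modify tubulin and that bind or move along microtubules were compared next. The 9 lists held 140 genes, of which 130 were in the tables and 106 were fitted: other tubulins, the γ-tubulin ring, folding cofactors, chaperonin and prefoldin, the decay pathway of tubulin messengers, modifying enzymes, microtubule-associated proteins, motors, and actin and keratin. Between ZT12 and ZT0, none of the 106 passed the threshold with edgeR, where 3.44% of all genes did, and 13 had an unadjusted p under 0.05. Counts of unadjusted p-values in these lists have no share over all genes beside them, so nothing is read from them. DESeq2 called 1, Dynll1, beside 366 of 8908 genes. With the library's letter as a block, edgeR called 2, beside 504 of 8908 genes. They are named here for having passed: Dynll1, a light chain of dynein, at -1.16 ± 0.32 (adjusted p = 0.0497), and Actn1, an actin crosslinker, at 0.76 ± 0.21 (adjusted p = 0.0485).

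The median ZT12 minus ZT0 difference of each list lay between -0.33 and 0.20 on the log2 scale, against 0.00 over all genes. The 6 tubulins had a median of -1.22, but the family was chosen on this difference in Tubb2a, so nothing is read from the gap. Folding cofactors had a median of -0.20 over 7 genes, chaperonin and prefoldin -0.31 over 15, the decay pathway -0.12 over 5 and motors 0.13 over 23. Between ZT18 and ZT6, 1 of 106 genes passed, where 3.79% of all genes did, and 18 had an unadjusted p under 0.05. The gene that passed, Pfn1, the actin-binding protein profilin, was lower at ZT18 (52.5 ± 3.05 against 153 ± 8.66 CPM, n = 2 each; -1.46 ± 0.37, edgeR adjusted p = 0.0426). Pfn1 lost that call in fits without either ZT6, either ZT18 or ZT12A or ZT12B libraries. In the 24-h wave test none passed with edgeR, where 5.14% of all genes did, and 13 had an unadjusted p under 0.05. DESeq2 called 3 (Dctn2, Dynll1 and Mapre2), beside 792 of 8908 genes.

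**Figure D3:**
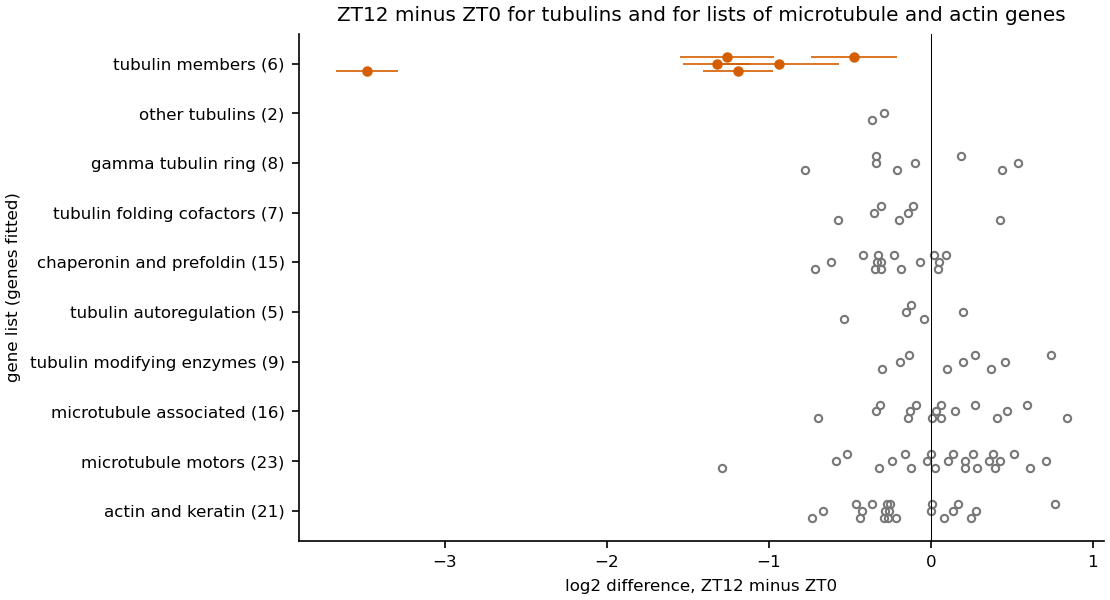
Log2 difference between ZT12 and ZT0 (horizontal axis) for the 6 fitted tubulins, with bars of 1 SE, and for the fitted genes of 9 lists, 1 point per gene. Tubb2a stands at -3.48, the other tubulins lie between -1.32 and -0.47, and list medians lie between -0.33 and 0.20. The tubulins were chosen with the Tubb2a difference known, so nothing is read from their gap to the lists.

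Along the lobule, Tubb4b and Tubb5 were higher near the central vein, and no difference passed the test for Tubb2a and the α-tubulins fitted. Cells of each library were ordered from pericentral to periportal by 16 landmark genes, none of them a tubulin, and split into 3 zones of equal size, of which the outer 2 were compared with the library as a block. With edgeR, 2 of the 6 tubulins passed, where 24.5% of 8892 genes did (12.7% higher in the pericentral zone), so this count is near the share over all genes. CPM values of zones are scaled by TMM factors.

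Tubb4b measured 138, 123 and 211 CPM in the pericentral and 99.3, 97.0 and 157 CPM in the periportal zone at ZT0, 67.5 and 88.4 against 62.3 and 31.6 CPM at ZT6, 42.8, 64.9 and 114 against 26.6, 40.7 and 57.0 CPM at ZT12, and 82.9 and 74.5 against 56.5 and 82.4 CPM at ZT18. It was lower in the periportal zone in 9 of 10 libraries, ZT18B being the exception. The difference was -0.48 ± 0.09 on the log2 scale (edgeR adjusted p = 1.5e-04).

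Tubb5 measured 68.2, 96.4 and 116 CPM in the pericentral and 72.2, 74.4 and 92.2 CPM in the periportal zone at ZT0, 78.8 and 84.9 against 87.0 and 64.3 CPM at ZT6, 28.6, 52.8 and 55.1 against 24.8, 32.2 and 33.9 CPM at ZT12, and 76.6 and 81.5 against 34.6 and 46.6 CPM at ZT18. It was lower in the periportal zone in 8 of 10 libraries, with the A libraries of ZT0 and ZT6 going the other way. The difference was -0.39 ± 0.10 (edgeR adjusted p = 0.0027). Among cells of at least 3000 UMIs, 44 to 953 per library, it was -0.33 and the call was lost (adjusted p = 0.095).

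For the other fitted members the test was not passed. Tubb2a averaged 69.9 ± 55.3 CPM in the pericentral and 78.5 ± 60.9 CPM in the periportal zone (SD, n = 10, a spread that holds the times of day), a difference of 0.14 with a 95% interval of -0.03 to 0.31 (edgeR adjusted p = 0.27). Tuba4a differed by 0.17 (0.00 to 0.34; adjusted p = 0.15), Tuba1b by -0.14 (-0.39 to 0.10; adjusted p = 0.45) and Tuba1c by -0.08 (-0.25 to 0.09; adjusted p = 0.63). The intervals allow zone differences of about the size found in Tubb5 for Tuba1b, and smaller ones for Tubb2a, Tuba4a and Tuba1c.

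**Figure D4:**
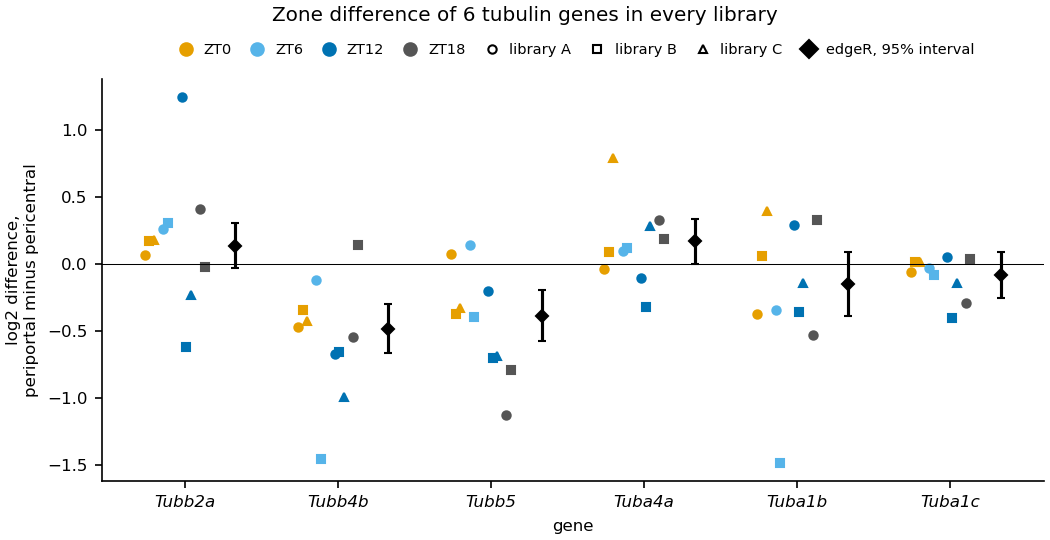
Log2 difference between the periportal and the pericentral zone (vertical axis) for 6 tubulin genes. Each small point is 1 library, colours give the time and shapes the letter, and the diamond is the edgeR estimate with its 95% interval. Points of Tubb4b lie below 0 in 9 of 10 libraries and those of Tubb5 in 8, and the Tubb2a point above 1 is ZT12A, which rests on 9 against 3 UMIs.

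Tuba8, whose product is an α-tubulin known from muscle, testis and brain, was sparse, and most of its UMIs lay in pericentral cells. It had 31 UMIs in the pericentral zone and 3 in the periportal zone. The latter were in ZT0B and ZT6A, where both zones held the same count (1 and 2 UMIs). Of its 40 UMIs, 31 (77.5%) lay in the 2 layers nearest the central vein of 8 and 24 in the first, where the other members with over 1000 UMIs had 23.9% to 32.4% of theirs in both layers. In the alternative fit with no filter on low counts, the difference was -2.80 ± 0.75 (edgeR adjusted p = 0.0018 over 14080 genes). That fit called 2320 of the 14080 genes. The value rests on few UMIs: Tuba8 was lower in the periportal zone in 6 of 10 libraries. Of the 31 pericentral UMIs, 10 were in ZT0C, 6 in ZT12C and 5 each in ZT0A and ZT6B.

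Whether a zone difference depended on the time of day was tested with zone by time terms. None of the 6 tubulins passed (0.0337% of 8892 genes did). Tubb5 alone had an unadjusted p under 0.05 (edgeR adjusted p = 0.45). DESeq2 also called none of the 6, with 1 at an unadjusted p under 0.05. For Tubb5 the periportal minus pericentral difference averaged -0.20 ± 0.25 at ZT0 (SD, n = 3), -0.13 ± 0.38 at ZT6 (n = 2), -0.53 ± 0.29 at ZT12 (n = 3) and -0.96 ± 0.23 at ZT18 (n = 2).

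In 8 equal layers, Tubb2a kept its order of times in every layer, with layer means of 126 to 152 CPM at ZT0, 75.3 to 91.1 at ZT18, 31.3 to 47.6 at ZT6 and 11.4 to 16.1 at ZT12. The highest layer mean was 1.20 to 1.52 times the lowest within a time, while means over whole libraries were 137 CPM at ZT0 and 13.6 CPM at ZT12. The mean of Tubb4b was highest in the most pericentral layer at all 4 times, with 179 ± 65.9, 122 ± 23.5, 95.8 ± 67.4 and 82.4 ± 15.2 CPM at ZT0, ZT6, ZT12 and ZT18 (SD, n = 3, 2, 3 and 2). ZT12A and ZT18B did not show it: layer 1 had 33.9 and 71.6 CPM there, against 59.0 and 79.7 CPM in layer 3. At ZT18 the mean of layer 3 was 79.4 CPM. Tubb5 at ZT18 ran from 94.9 ± 10.98 CPM in the first layer to 32.8 ± 5.75 in the sixth (n = 2).

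**Figure D5:**
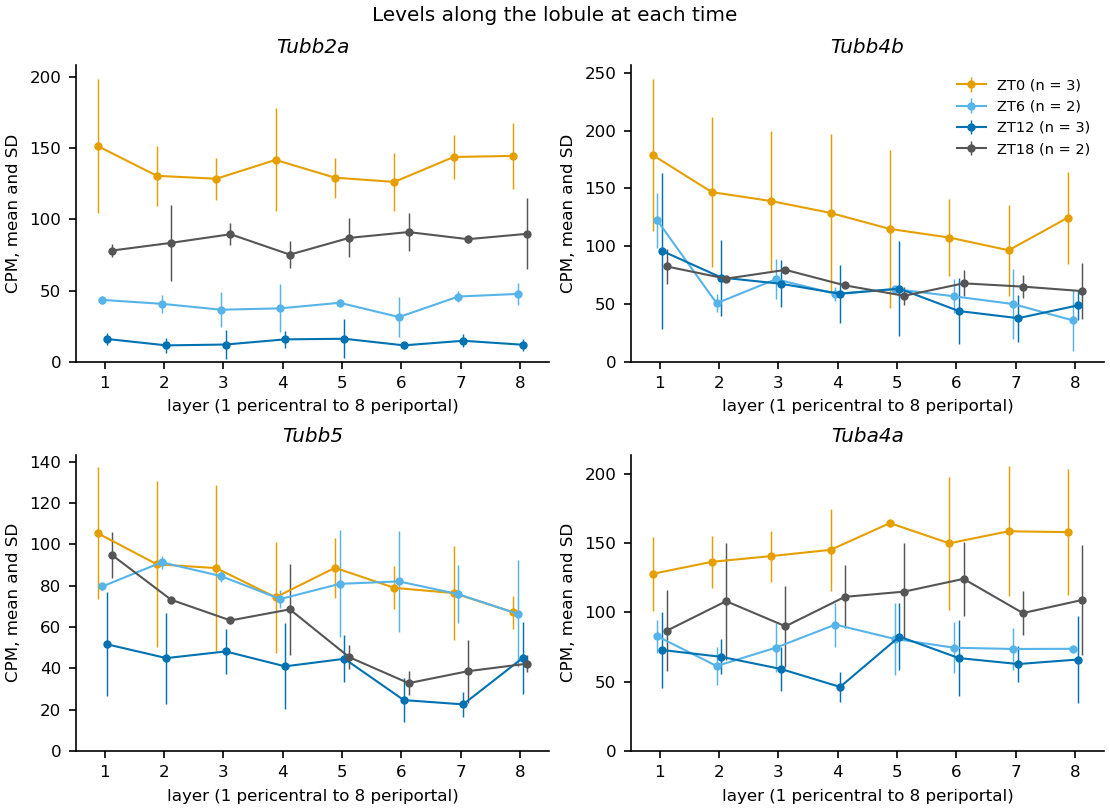
Mean CPM (vertical axis; bars are the SD over 3 or 2 libraries) of 4 tubulin genes in 8 equal layers of cells from pericentral (1) to periportal (8), 1 line per time. The Tubb2a lines are flat and apart, with 126 to 152 CPM at ZT0 and 11.4 to 16.1 CPM at ZT12. The Tubb4b mean is highest in layer 1 at each time, though not in ZT12A or ZT18B taken alone.

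Among the other microtubule and actin genes, 20 of 106 passed between zones, beside 24.5% of all genes tested. Of microtubule-associated proteins 5 of 16 passed, 2 higher in the periportal zone and 3 lower. Mapre2, a protein of growing microtubule ends, averaged 6.58 CPM in the pericentral and 19.6 CPM in the periportal zone (1.53 ± 0.18, edgeR adjusted p = 2.5e-08), and Map4, a microtubule stabiliser, differed by 0.38 ± 0.13. Mtus1 (-0.38 ± 0.07) and the end-binding linker Clip1 (-0.29 ± 0.11) were lower there.

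Of motors 5 of 23 passed, 1 higher and 4 lower in the periportal zone. Kif1b, a kinesin, differed by -0.47 ± 0.08, and the dynein chains Dynlrb1 and Dynll1 by -0.45 ± 0.07 and -0.43 ± 0.09, while the kinesin Kif1c differed by 0.20 ± 0.07. Of folding genes, Tbcel, a cofactor-like protein (-0.46 ± 0.09), and Pfdn5, a prefoldin subunit (-0.27 ± 0.07), were the 2 of 22 past the threshold. No gene of the γ-tubulin ring (8), of the decay pathway (5), of the modifying enzymes (9) or of the other tubulins (2) passed with edgeR, and 1 of these 24, a modifying enzyme, had an unadjusted p under 0.05.

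Of actin and keratin genes 8 of 21 passed, 6 higher and 2 lower in the periportal zone. Myh9, the heavy chain of non-muscle myosin, differed by 0.63 ± 0.10, Actn1 by 0.45 ± 0.12 and the keratin Krt18 by 0.36 ± 0.08. Actb, cytoplasmic β-actin, differed by -0.27 ± 0.06 and Rdx, the membrane linker radixin, by -0.32 ± 0.07. The list medians between zones lay between -0.08 and 0.24, against -0.01 over all genes.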

How the data were processed

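Gene by cell tables of UMI counts were used as deposited by the authors, raw whole numbers per gene and cell. The submitters' processing notes name Cell Ranger and the builds hg19 and mm10; versions, settings and the roles of the builds are not given in the sources used here. The members and lists were chosen with earlier results of these data known. Groups come from sample titles. Filters of 1000 UMIs as a minimum and 35% mitochondrial UMIs as a maximum removed none of the 18378 cells, and doublets were not called.

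Counts were summed per library, or per library and zone, and fitted with edgeR 4.0.16 (glmQLFit, glmQLFTest, R 4.3.3) after TMM, with a minimum mean of 3 CPM for a gene. Adjusted p-values are Benjamini-Hochberg over all genes fitted, with a threshold of 0.05. Standard errors (SE) are the log2 difference over the square root of F. The 95% intervals are formed from these SEs with the normal distribution, so they are narrower than the edgeR test itself would give. Time was fitted with 1 mean per time, and the wave test has 2 degrees of freedom. Zones are the outer 2 of 3 equal parts of the cells, ordered by the mean z-score of 8 periportal minus 8 pericentral landmarks. Single-library zone differences are on the log2(CPM + 1) scale, which understates changes of low genes. The scripts were tested on simulated data. Depth was 1454623 to 7144803 UMIs per library.

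Replicate pairs of one time differed more than sampling noise, so no library was counted as a copy. The chi-square per degree of freedom was 5.66 at ZT6, 5.30 at ZT18 and 20.9 to 63.6 at ZT0 and ZT12. The ZT6 libraries share an index number, as do those of ZT18, so their SDs hold no difference between numbers, unlike those of ZT0 and ZT12. ZT0 and ZT12 libraries of the same letter share the number of their 10x index, and their deviations from the time means correlated at 0.29 (A), 0.52 (B) and 0.63 (C) over 4341 genes, so the letters were taken to pair them. The main fit leaves this pairing out, so its SEs for ZT12 minus ZT0 include differences between letters. With the index number as a block the SE was 0.14 for Tubb4b and 0.20 for Tuba1c, against 0.29 and 0.37 in the main fit. All 9 members are named; of each list, genes past the threshold with a mean of at least 10 CPM are named, at most 3 per direction; for likeness to Tubb2a, the 8 highest and 4 lowest correlations, of which 1 is not reported here. Coding sequences, gene positions and 3′ words come from GENCODE M21 and promoters from RefSeq; 14321 of 14812 entries matched a symbol.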

Additional observations from a re-analysis of the deposited data

How the results depend on the processing

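Alternatives were DESeq2, library size alone, no filter or a minimum of 20 CPM, each library left out, the letter as a replicate block, the index number as a block, cells without the 5% with most UMIs, cells of at least 3000 UMIs, and for zones the outer eighths and the odd and the even landmarks. Leaving out both ZT18 libraries was chosen after seeing the data. Tubb2a from ZT12 to ZT0 lay between -3.56 and -3.34, the latter with library size alone, a scaling that moves the median of all genes by 0.13 there and by -0.10 between zones. Members past the threshold between ZT12 and ZT0 numbered 3 to 5, and 5 with the replicate block, against 4.

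Of calls on single members, Tubb4b between ZT12 and ZT0 was lost in 6 of 19 alternatives (-1.26 to -0.93), Tubb2a between ZT18 and ZT6 in 4 of 17 (1.02 to 1.23) and Tubb5 between zones in 1 of 20 (cells of at least 3000 UMIs), and Tuba1c was gained in 2 between ZT12 and ZT0 and in 2 between ZT18 and ZT6. No called value of a member reversed. The letters are taken to pair ZT0 and ZT12 only. Counts with the replicate block for ZT18 against ZT6 and for the wave also rest on letters not known to pair libraries. Deviations of ZT6 and ZT18 libraries of the same letter correlated at 0.11. With cells of at least 3000 UMIs, 1 member and 13 list genes passed between zones, where 1205 of 8891 genes did. List genes passing between ZT12 and ZT0 numbered 1 with DESeq2, 1 with no filter, 2 with the replicate block, 3 with the index number as a block, and 0 to 1 without 1 library. Between ZT18 and ZT6 they numbered 2 with no filter, 0 at 20 CPM, 4 with the replicate block, 0 without the 5% of cells with most UMIs, and 0 to 1 without 1 library. In the wave test they numbered 3 with DESeq2, 1 with library size alone, 2 with no filter, 1 with the replicate block, and 0 to 1 without 1 library. All genes passing between ZT12 and ZT0 numbered 306 of 8908 in the main fit and 366 with DESeq2. They numbered 469 (of 14278) with no filter, 504 with the replicate block and 767 with the index block. Between ZT18 and ZT6 they numbered 338, against 595 with no filter, 199 (of 4341) at 20 CPM and 730 with the replicate block. For the wave they numbered 458, against 792 with DESeq2, 420 with library size alone, 710 with no filter and 749 with the replicate block. The causes were not tested. The number of libraries and the low UMI count per cell limit what can be seen in Tuba1b and in the sparse members.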

Other observations

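The cell with the most UMIs of any 1 tubulin, singled out after the values were seen, was in ZT6A. It held 13 Tubb4b UMIs, where the next cell of that library held 4, together with 5 of Tuba1b and 3 of Tubb2a among 5460 UMIs in all. It had 4 UMIs of the 12 cycling-cell markers, 1 each of Mki67, Ccna2, Ccnb2 and Birc5, and no other of the 2420 cells of its library reached 4. Of the library's cells, 0.496% had more UMIs.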
